A study of Mus musculus and Homo sapiens
Mus musculus with 14 samples.

Results

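The outer segment disc and axoneme disease genes are 10 genes whose products build, shape or reach the light-sensing outer segment of photoreceptors, and whose human counterparts are known from inherited retinal disease. They were chosen by symbol, with no measured value in the rule, though earlier results of these data were known. They comprise Rp1, Rp1l1, Prph2, Rom1, Pcare, Rpgr, Rpgrip1, Prom1, Cdhr1 and Reep6. All 10 were listed in both retina count tables, which together name 25357 genes, 24460 of them in the layer table and 18415 in the amacrine table. Light-Seq attaches a DNA barcode by light to cDNA made inside a fixed section, so that RNA from regions drawn under the microscope can be sorted after sequencing. Total RNA was copied with random priming, and unique molecular identifiers (UMIs) were counted per gene and barcode.

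The retinas came from WT mice of the CD1 IGS strain in the third postnatal week, with no treatment. In the layer experiment, the outer nuclear layer (ONL, the layer of photoreceptor nuclei), the bipolar cell layer (BCL) and the ganglion cell layer (GCL) were barcoded in each of 4 sections, giving 12 libraries. The 4 sections were cut from 1 animal, so they are technical replicates and p-values from them are too small for differences between animals. In the amacrine experiment, TH+ amacrine cells, picked by an antibody to tyrosine hydroxylase, and TH- amacrine cells were barcoded in 5 sections, giving 10 libraries. Each TH+ library pools only a few cells. These sections too are technical replicates, and the methods speak of a single source animal for Light-Seq, so p-values over them are likewise too small for differences between animals. Mouse 3T3 fibroblasts from 3 mixed culture wells, a cell line with no photoreceptor features, were also counted. These wells held no retina, so they cannot measure retinal cDNA that takes the barcode of another region.

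Depth in sections 1 to 4 was 801105, 722893, 438059 and 310228 UMIs in the ONL. The BCL libraries held 193869, 208437, 196794 and 202274 UMIs, and the GCL libraries 785013, 667252, 650644 and 585655. The TH+ libraries were the shallowest, with 48978, 87449, 42507, 46245 and 30317 UMIs in sections 1 to 5, against 152105, 172838, 134394, 200344 and 141886 in the TH- libraries. Depth therefore limited the amacrine libraries most: a count of 0 allows a level of up to 99.0 CPM, the UMIs of a gene scaled to a total of 1000000, in TH+ section 5. In the ONL the same limit was at most 9.67 CPM. These limits, set at 3 UMIs, cover counting error only.

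A photoreceptor outer segment is a modified cilium filled with stacked membrane discs, which are renewed throughout life at its base. Tetraspanins hold the curved rims of the discs, doublecortin-domain proteins bind the microtubules of the axoneme that runs along the stack, and the connecting cilium links the outer segment to the cell body and controls what enters it. Most of these genes are used by rods and cones alike, and rods are by far the more frequent photoreceptor of the mouse retina.

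Prph2 (ENSMUSG00000023978, GRCm39 chr17:47221385-47235859, plus strand) and Rom1 (ENSMUSG00000071648, chr19:8904755-8906720, minus strand) encode the tetraspanins peripherin 2 and ROM1 of the disc rim. Rp1 (ENSMUSG00000025900, chr1:4069780-4479506, minus strand) and Rp1l1 (ENSMUSG00000046049, chr14:64229955-64272474, plus strand) encode related doublecortin-domain proteins of the axoneme. New discs form where the products of Cdhr1, Prom1 and Pcare are found. Cdhr1 (ENSMUSG00000021803, chr14:36799807-36820484, minus strand) encodes the photoreceptor cadherin and Prom1 (ENSMUSG00000029086, chr5:44150962-44259395, minus strand) the membrane protein prominin 1. Pcare (ENSMUSG00000044375, chr17:72050550-72059938, minus strand) encodes an actin-associated ciliary protein. In the connecting cilium, the product of Rpgrip1 (ENSMUSG00000057132, chr14:52341744-52401003, plus strand) anchors that of Rpgr (ENSMUSG00000031174, chrX:9939860-10083159, minus strand). Reep6 (ENSMUSG00000035504, chr10:80165787-80172275, plus strand) encodes a protein of the endoplasmic reticulum that rods need for membrane trafficking.

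Promoter sequences from RefSeq (GRCm38.p6, 250 bases before to 50 after a transcription start) were available for 7 of the 10 genes, with 9 promoters among them. Rp1, Rp1l1 and Reep6 had no entry. The letters TAATCC, the core recognised by homeodomain factors of the CRX and OTX type, were present on either strand in 2 of the 7 genes, Pcare and Rpgrip1, against 7.06% of all 32544 promoters of 300 bases. In Pcare the match began 18 bases upstream of the start on the gene's own strand, and in Rpgrip1 28 bases upstream on the opposite strand, where it reads GGATTA. Another motif, TGCTGA, part of the element bound by factors of the NRL and MAF type, was in the same 2 genes and in 19.5% of all promoters. CANNTG, the E-box, was in 4 genes, namely Pcare, Rpgr, Prom1 and Cdhr1, and in 72.3% of all promoters. These counts are of genes, while the shares are of promoters. Each motif was matched in only 1 promoter of each such gene, so the same counts hold among the 9 promoters. The 3 motifs were searched on both strands, and a match describes letters only. The promoters of Pcare (chr17:71752856-71753155, minus strand) and Rpgrip1 (chr14:52110653-52110952, plus strand) are shown because they alone hold TAATCC or its complement, which the capitals mark. The first of 2 promoters of Rpgr (chrX:10216746-10217045, minus strand), the gene whose levels differed least between layers, is shown beside them and has no such match.
Pcare promoter: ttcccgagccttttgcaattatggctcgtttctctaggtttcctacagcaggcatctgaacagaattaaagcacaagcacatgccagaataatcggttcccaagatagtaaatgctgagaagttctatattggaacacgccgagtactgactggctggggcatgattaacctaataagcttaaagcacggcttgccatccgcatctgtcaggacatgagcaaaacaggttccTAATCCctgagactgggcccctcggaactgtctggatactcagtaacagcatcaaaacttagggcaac
Rpgrip1 promoter: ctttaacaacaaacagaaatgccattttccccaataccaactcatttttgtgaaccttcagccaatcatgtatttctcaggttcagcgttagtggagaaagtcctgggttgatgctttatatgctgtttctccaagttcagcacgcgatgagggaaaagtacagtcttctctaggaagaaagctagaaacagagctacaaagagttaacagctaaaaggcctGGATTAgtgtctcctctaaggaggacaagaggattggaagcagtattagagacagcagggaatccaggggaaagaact
Rpgr promoter: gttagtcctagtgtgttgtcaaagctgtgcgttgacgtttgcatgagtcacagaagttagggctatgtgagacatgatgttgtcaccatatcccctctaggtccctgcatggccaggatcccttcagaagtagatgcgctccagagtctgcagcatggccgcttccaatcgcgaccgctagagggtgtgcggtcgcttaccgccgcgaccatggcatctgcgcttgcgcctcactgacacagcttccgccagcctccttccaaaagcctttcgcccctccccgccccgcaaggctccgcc

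All 10 genes together made up 2.57 ± 0.238% of the UMIs of the ONL libraries (mean ± s.d., n = 4). Their share was 0.584 ± 0.107% in the BCL (n = 4) and 0.232 ± 0.0563% in the GCL (n = 4). In the TH+ libraries it was 0.659 ± 0.162% (n = 5) and in the TH- libraries 0.371 ± 0.0932% (n = 5). UMIs of the genes were thus counted under the barcode of every retinal region sampled, with the photoreceptor layer highest. Mitochondrially encoded genes ran in the opposite order over the layers, taking 4.76 ± 0.527% of ONL, 6.30 ± 0.445% of BCL and 9.04 ± 0.326% of GCL UMIs (n = 4 each). Their share was 7.97 ± 1.09% for TH+ and 6.92 ± 0.778% for TH- libraries (n = 5 each). In the 3 wells of 3T3 cells, 5 UMIs in all fell on the 10 outer segment genes, 3 on Reep6 and 2 on Rom1. The other 8 genes had 0 UMIs there, which allows up to 22.1 CPM in the shallowest well.

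Layer labels were checked against lists of marker genes. The 13 genes of the rod list, among them Gnat1, Sag and Slc24a1, summed to 69976, 80363, 83888 and 82407 CPM in ONL sections 1 to 4. Their mean was 79159 ± 6290 CPM there, 19368 ± 4283 CPM in the BCL and 7346 ± 1859 CPM in the GCL (n = 4 each). None of the 13 was at 0 in any layer. Bipolar markers were highest in the BCL at 7109 ± 362 CPM and ganglion cell markers in the GCL at 7059 ± 394 CPM (n = 4 each), so the labels matched their markers. Rod UMIs were nevertheless counted in the 2 layers that hold no photoreceptor nuclei. Their part in the levels of the 10 genes there was not tested. For its cell mixing test, the paper proposes diffusion of RNA or cDNA, leftover barcode strands and scattered light as sources of wrongly barcoded reads. It added steps against these for the retina, and what remained was not tested here. In these pooled regions, fewer cells of a type, less RNA per cell and barcoding outside the drawn region cannot be told apart.

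Of the disc rim tetraspanins, Prph2 was among the most abundant of the genes by CPM, while Rom1 stood lower. Prph2 measured 4625, 5742, 5077 and 4535 CPM in ONL sections 1 to 4, 1088, 1094, 1250 and 801 CPM in the BCL, and 350, 525, 567 and 323 CPM in the GCL. The 3 layers did not overlap, and sections 1 and 4 were the low ones in the GCL. Rom1, its partner in the rim, had 2285 ± 278 CPM in the ONL, 622 ± 139 CPM in the BCL and 233 ± 40.7 CPM in the GCL (n = 4 each), again without overlap.

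Of the axoneme genes, Rp1 had the steepest decline of all 10 from the ONL to the other layers. Rp1 measured 4415, 5017, 5246 and 5435 CPM in ONL sections 1 to 4, 867, 984, 971 and 687 CPM in the BCL, and 222, 385, 412 and 248 CPM in the GCL. Its layers did not overlap either, and the low GCL sections were those of Prph2. Rp1l1 had 1368 ± 121 CPM in the ONL, 251 ± 31.7 CPM in the BCL and 103 ± 25.8 CPM in the GCL (n = 4 each). BCL levels were 17.4% of the ONL level for Rp1 and 18.4% for Rp1l1, and GCL levels were 6.30% and 7.53%.

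Of the genes of disc formation, Cdhr1 had the highest CPM. It measured 4768, 5869, 4703 and 3533 CPM in ONL sections 1 to 4, 1037, 1108, 1677 and 875 CPM in the BCL, and 408, 613, 653 and 458 CPM in the GCL. Prom1 followed the same order of sections in the ONL, with 839, 1064, 854 and 612 CPM, except that sections 1 and 3 changed places. Both genes were lowest in ONL section 4, as were 5 others of the 10, and both varied between ONL sections more than counting alone gives, with coefficients of variation of 20.2% and 21.9% against 2.03% and 4.80% from counting. Prom1 had 247 ± 62.6 CPM in the BCL and 93.3 ± 19.4 CPM in the GCL. Pcare had 1095 ± 73.9 CPM in the ONL, 203 ± 54.1 CPM in the BCL and 73.3 ± 21.7 CPM in the GCL (n = 4 each), and it was the least variable of the 10 genes between ONL sections, at 6.75%.

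At the connecting cilium the levels were lower. Rpgrip1 had 472 ± 44.8 CPM in the ONL, 130 ± 24.8 CPM in the BCL and 34.4 ± 4.60 CPM in the GCL (n = 4 each). Rpgr rested on few molecules, with 18, 19, 12 and 6 UMIs in ONL sections 1 to 4, 4, 2, 3 and 2 UMIs in the BCL, and 12, 8, 11 and 13 UMIs in the GCL. These counts correspond to 23.9 ± 3.68, 13.8 ± 5.22 and 16.6 ± 4.26 CPM (n = 4 each). Rpgr is the exception among the 10 genes, because its layers overlapped and its spread in the ONL, 15.4%, was below the 29.0% that counting alone gives. Reep6, the trafficking gene, had 4851 ± 452 CPM in the ONL, 1259 ± 218 CPM in the BCL and 481 ± 133 CPM in the GCL (n = 4 each).

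**Figure D1:**
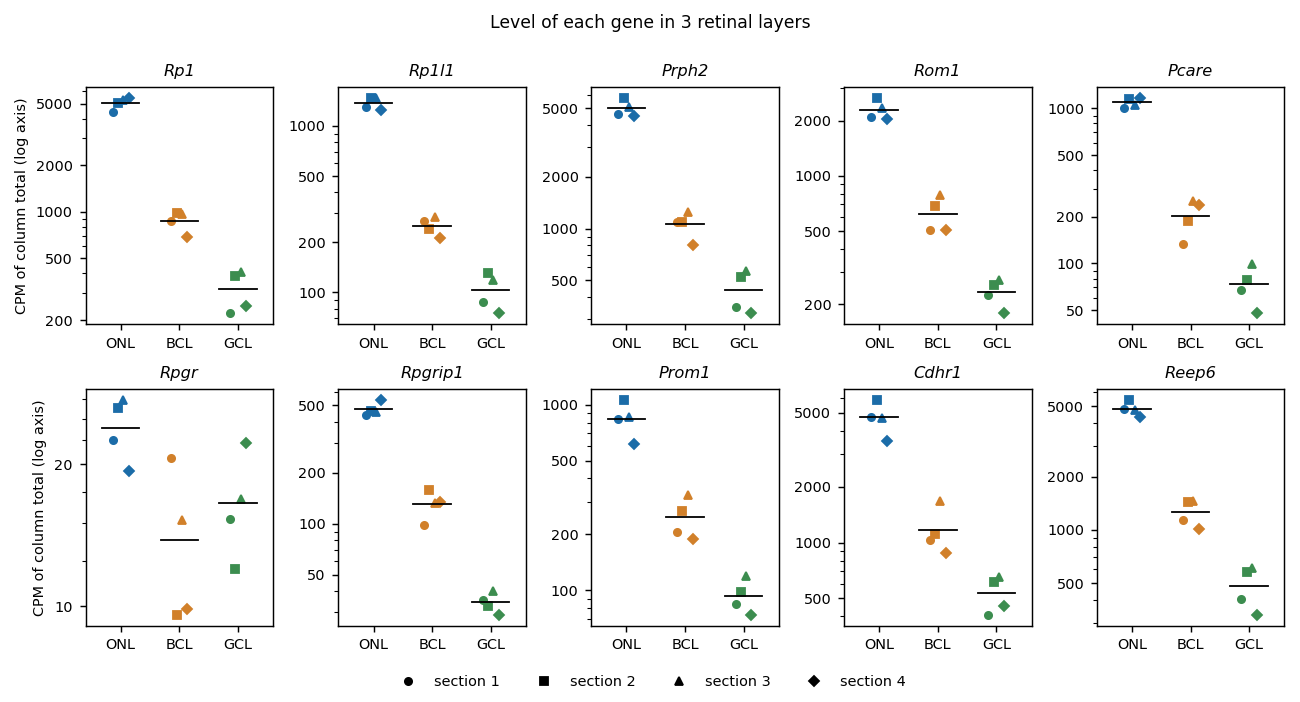
Level of each gene in CPM of the column total (log axis, a separate scale for each gene) in the ONL, BCL and GCL. Each symbol is 1 of 4 sections and the black line is the mean. For 9 genes the layers are separate and fall from ONL to BCL to GCL, as for 4.16% of the 11324 genes tested, while the values of Rpgr overlap between layers.

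Compared per length of their exons, as RPKM, which is the CPM divided by the exon length in kilobases, the 10 genes fell into an upper and a lower group in the ONL. Reep6 was first at 1936 ± 180 RPKM, followed by Prph2 at 1664 ± 184, Rom1 at 1506 ± 183 and Cdhr1 at 1089 ± 220 RPKM (n = 4 each). Neighbours among these 4 overlapped and cannot be ordered beyond their spread. Below them came Rp1 at 408 ± 36.0, Pcare at 218 ± 14.7, Rp1l1 at 181 ± 15.9 and Prom1 at 117 ± 25.7 RPKM. Rpgrip1 at 38.9 ± 3.69 RPKM and Rpgr at 3.29 ± 0.508 RPKM were the lowest, and from Cdhr1 downwards no neighbours overlapped. The same 4 genes led in the BCL and the GCL, with overlaps between each neighbouring pair of them. In the TH+ libraries Prph2 was first at 560 ± 163 RPKM and Reep6 second at 520 ± 133 RPKM (n = 5 each), again with overlap.

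Some exons are shared with other genes in a later GENCODE release, which gave the gene positions and overlaps here and in which some exon lengths differ from the deposited ones. The authors counted exons with the default settings of featureCounts, which do not use strand and leave a read that overlaps more than 1 gene unassigned. Overlapping exons make up 11.2% and 4.96% of the exon bases of Prom1 (Gm16401 and Gm73071, on the opposite strand) and 8.38% of those of Rpgrip1 (Supt16, opposite strand). For Rpgr the share was 2.69% (Srpx, same strand) and for Pcare 0.711% (Gm65343, opposite strand). If the authors' release held the same overlaps, which was not tested, reads over these bases would be missing from the counts of both genes. The other 6 of the 10 genes share no exon bases with another gene in the later release.

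The layer comparison asks which genes mark each cell layer of the retina. Against the BCL, all 10 genes were higher in the ONL, where 18.5% of the 11324 genes tested rose and 18.2% fell (edgeR quasi-likelihood test, Benjamini-Hochberg adjusted p ≤ 0.05 over all genes tested). Rp1 had the largest rise, with a log2 fold change of 2.84 ± 0.14 (± SE, edgeR adjusted p = 1.58e-23), a 7.16-fold difference seen in 4 of 4 sections. Rp1l1 at 2.78 ± 0.14 and Pcare at 2.75 ± 0.15 came next, and the tetraspanins Prph2 and Rom1 rose by 2.57 ± 0.14 and 2.21 ± 0.13. The genes other than Rpgr lay between 2.12 for Prom1 and 2.84 for Rp1, with edgeR adjusted p from 1.58e-23 to 1.38e-16, and their layers did not overlap. Of all genes tested, 11.2% lay higher in the ONL without overlap. The median log2 fold change of the 10 genes was 2.31, against 0.09 for all genes tested. These p-values cover the spread between sections of 1 animal.

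Rpgr passed this test by a small margin, with a log2 fold change of 1.14 ± 0.43 (edgeR adjusted p = 0.0328). Its call was lost in 8 of 12 alternatives, among them DESeq2 (adjusted p = 0.121), no scaling factors (adjusted p = 0.161 in edgeR), and edgeR fits without section 2, 3 or 4 (adjusted p = 0.186, 0.0814 and 0.0810). Over all 12 alternatives the adjusted p of edgeR or DESeq2 ran from 0.0280 to 0.186. Whether Rpgr was called higher in the ONL than in the BCL thus depended on the setting. Its log2 fold change ran from 0.80 to 1.43 over the 12 alternatives, and its CPM was higher in the ONL in 4 of 4 sections, with overlapping ranges.

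Against the GCL the differences were larger. All 10 genes were higher in the ONL, beside 29.3% of all genes tested, while 32.2% of genes tested were higher in the GCL. Rp1 again led, with a log2 fold change of 4.15 ± 0.14 (edgeR adjusted p = 2.41e-30), which is 17.7-fold. Pcare at 4.05 ± 0.14, Rpgrip1 at 3.91 ± 0.14 and Rp1l1 at 3.89 ± 0.13 followed. The smallest of the 9 genes other than Rpgr was Cdhr1 at 3.32 ± 0.15 (edgeR adjusted p = 1.44e-25), and all 9 were higher in 4 of 4 sections without overlap, beside 22.0% of all genes tested that lay higher in the ONL without overlap. Ordered by p among all 11324 genes, Rp1l1 ranked 3, Rp1 5 and Pcare 8. The median over the 10 genes was 3.58, against 0.00 over all genes tested. Rpgr was at 0.72 ± 0.30 (edgeR adjusted p = 0.0309) and higher in 3 of 4 sections. That call was lost in 7 of 12 alternatives, among them DESeq2 (adjusted p = 0.124), edgeR without mitochondrially encoded genes (adjusted p = 0.0617) and edgeR fits without section 1, 2 or 3 (adjusted p = 0.0814, 0.224 and 0.0841), within a range of 0.0168 to 0.224. The log2 fold change of Rpgr ran from 0.52 to 0.93 over the 12 alternatives. Without mitochondrially encoded genes the other 9 genes were still called higher in the ONL.

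Between the 2 layers without photoreceptor nuclei, 9 of the 10 genes were higher in the BCL, beside 16.1% of all genes tested, while 20.4% of genes tested were higher in the GCL. Rpgrip1 rose most, by a log2 fold change of 1.75 ± 0.21 (edgeR adjusted p = 1.07e-09), and Cdhr1 least, by 0.97 ± 0.16 (edgeR adjusted p = 9.68e-07). The other 7 genes lay between 1.09 for Prph2 and 1.31 for Rp1, and each of the 9 was higher in 4 of 4 sections. Rpgr was at -0.42 ± 0.46 (edgeR adjusted p = 0.527) and higher in the BCL in 1 of 4 sections, so no difference was detectable at this depth. The median was 1.23 for the 10 genes and -0.02 for all genes tested. As before, the p-values cover sections of 1 animal. The 3 layer comparisons share their libraries and are not independent of each other.

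Scaling moved the overall balance of calls. Without scaling factors, an alternative added after the data were seen, the median of all genes shifted by -0.34 in ONL against BCL, by -0.17 in ONL against GCL and by 0.17 in BCL against GCL. Such a shift moves every gene by about the same amount. Relative to the median of all genes, the median of the 10 genes was 2.22, 3.58 and 1.25 with scaling factors. Without them, the share of calls higher in the ONL fell from 50.5% to 29.3% in ONL against BCL, and that of calls higher in the BCL rose from 44.1% to 55.7% in BCL against GCL. Directions of the 10 genes between layers were the same with and without scaling factors.

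**Figure D2:**
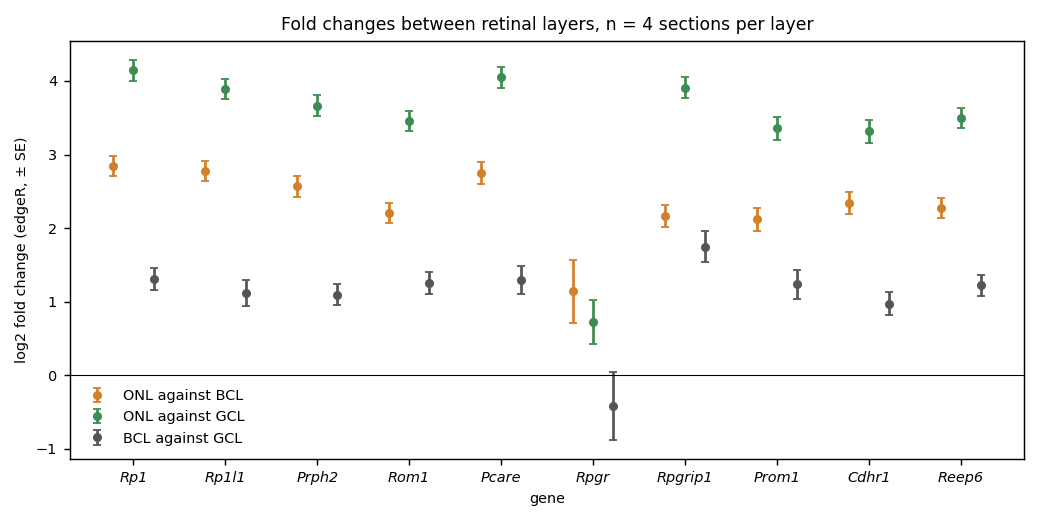
Log2 fold changes from edgeR for the 10 genes in the 3 layer comparisons (n = 4 sections per layer). Points are estimates and bars are ± 1 SE. In ONL against GCL, 9 genes lie between 3.32 and 4.15 and Rpgr at 0.72, and Rpgr alone is below 0 in BCL against GCL.

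Whether the genes kept a fixed ratio to rod RNA across layers was asked by counting their UMIs per 1000 UMIs of the rod list, which holds none of them. Rp1 had 63.1, 62.4, 62.5 and 65.9 per 1000 in ONL sections 1 to 4, 56.0, 51.7, 38.2 and 39.1 in the BCL, and 39.3, 46.6, 43.3 and 41.6 in the GCL. Every ONL section was above every section of the other layers. The means were 63.5 ± 1.66, 46.3 ± 8.95 and 42.7 ± 3.10 per 1000 (n = 4 each, two-sided exact permutation p = 0.0286 for ONL against BCL and for ONL against GCL). Pcare was also higher in the ONL, at 13.9 ± 0.849 per 1000 against 10.5 ± 2.09 in the BCL (exact permutation p = 0.0571, n = 4 each) and 9.98 ± 1.66 in the GCL (exact permutation p = 0.0286). Its ONL ratio was above that of either other layer in 4 of 4 sections.

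Rpgr went the other way. Its ONL ratio was 0.302 ± 0.0452 per 1000 rod UMIs, its BCL ratio 0.750 ± 0.391 and its GCL ratio 2.42 ± 1.02 (n = 4 each), and the exact permutation p was 0.0286 for each pair of layers. Per rod UMI, its level in the ONL was thus 0.125 times that in the GCL, and 4 of 4 sections followed the order. Cdhr1 was similar in the ONL and BCL, at 60.0 ± 13.5 and 60.3 ± 7.97 per 1000, and had 73.0 ± 3.44 in the GCL (n = 4 each). The exact permutation p for Cdhr1 was 0.0286 for BCL against GCL and 0.114 for ONL against GCL. Cdhr1 was higher in the GCL than in either other layer within 4 of 4 sections. The other 6 genes gave exact p-values of 0.0571 or more in every pair of layers, among them Rp1l1 with 17.3 ± 1.59, 13.3 ± 2.74 and 14.1 ± 1.82 per 1000. Prph2 had 63.3 ± 7.08, 55.7 ± 10.97 and 59.8 ± 4.09 per 1000, and Reep6 61.7 ± 8.14, 65.9 ± 9.98 and 65.4 ± 7.38. Within sections, Rp1l1 was higher in the ONL than in either other layer in 4 of 4, and Reep6 was lower in the ONL than in either in 4 of 4. Rom1 and Prom1 were lower in the ONL than in the BCL, Prph2 higher in the ONL than in the GCL, and Rpgrip1 higher in the BCL than in the GCL, each in 4 of 4 sections. These are 8 of the 18 pairs of layers for the 6 genes, and an exact test over 4 paired sections cannot give a p below 0.125. With 4 sections a layer the smallest possible exact p without pairing is 0.0286, which 7 of the 30 tests reached. None of the 30 passed a Benjamini-Hochberg threshold over those tests. At a smallest p of 0.0286, a pass would have needed far more than 7 tests to reach it. These ratios are therefore reported as unadjusted values from sections of 1 animal. As an alternative, each gene was taken as a share of the UMIs of the 10 genes. Rp1l1, Rom1, Prom1 and Reep6 then had an exact permutation p of 0.0286 in ONL against BCL, as did Rp1l1 and Rom1 in ONL against GCL. In these, the share of Rp1l1 was higher in the ONL and those of Rom1, Prom1 and Reep6 lower. Prph2 and Rpgrip1 did not reach this p, and no share passed such a threshold. Shares of 1 total depend on each other, since a larger share of 1 gene lowers those of the others.

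**Figure D3:**
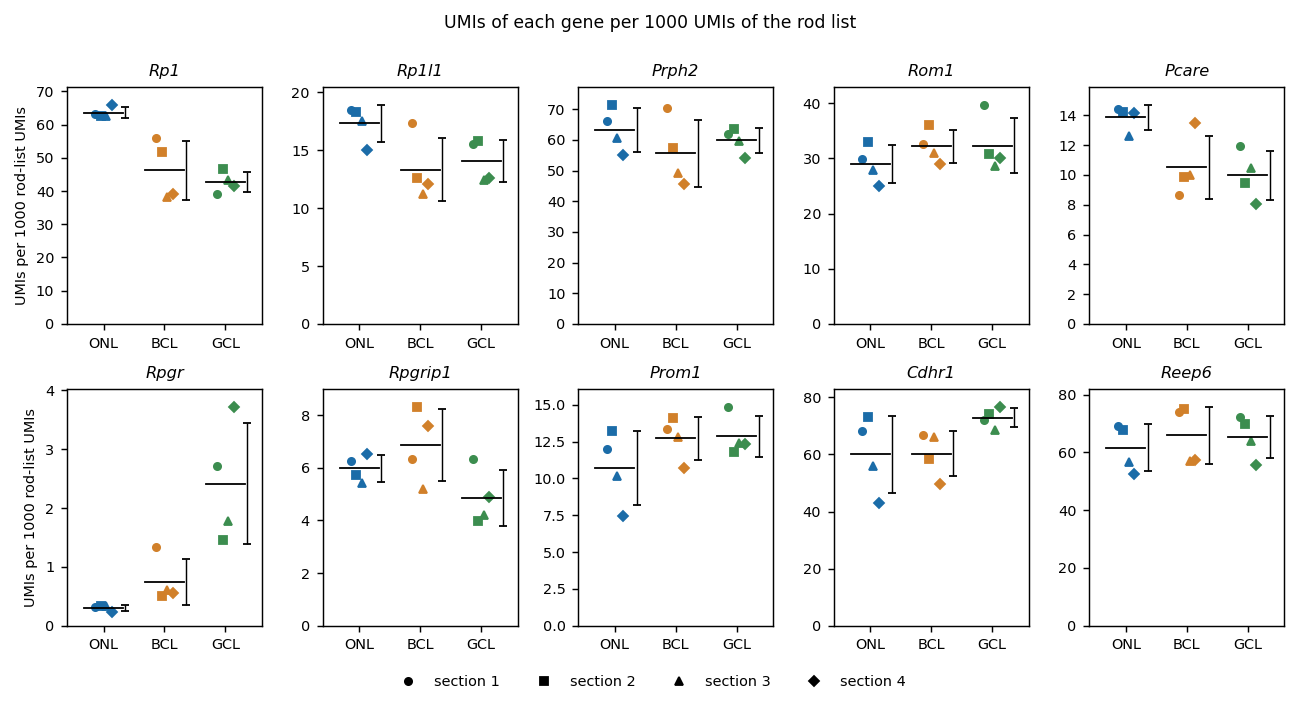
UMIs of each gene per 1000 UMIs of the 13-gene rod list, by layer. Symbols are the 4 sections, black lines the means and bars ± 1 s.d. Rp1 sits at 62.4 or more in every ONL section and at 56.0 or less elsewhere, while Rpgr is highest in the GCL.

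Related proteins can also be compared within a library. Rom1 had 0.452, 0.463, 0.461 and 0.453 UMIs per Prph2 UMI in ONL sections 1 to 4, a narrow range. The ratio was 0.464, 0.627, 0.630 and 0.636 in the BCL and 0.640, 0.486, 0.480 and 0.556 in the GCL. The mean ratio was 0.457 ± 0.00542 for ONL, 0.589 ± 0.0834 for BCL and 0.540 ± 0.0749 for GCL libraries (n = 4 each, exact permutation p = 0.0286 for the ONL against either layer and 0.486 for BCL against GCL). Section 1 of the BCL was only just above the ONL. Rom1 had 637 to 1920 UMIs per ONL library, against 98 to 155 in the BCL and 105 to 177 in the GCL. Counting alone therefore spreads the ratio more in the BCL and GCL than in the ONL. For the axoneme pair, Rp1l1 had 0.273 ± 0.0310, 0.289 ± 0.0310 and 0.331 ± 0.0484 UMIs per Rp1 UMI for ONL, BCL and GCL (n = 4 each, smallest exact permutation p = 0.0857). The ratio of this pair was lower in the ONL than in the GCL within every section. None of the 6 tests passed a Benjamini-Hochberg threshold over them, while 2 had an unadjusted exact p of 0.05 or less. At a smallest possible exact p of 0.0286, a pass would have needed more than 2 tests to reach it.

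TH+ and TH- amacrine cells were compared to find what sets the dopaminergic cells apart. Th itself, whose protein was used to pick the cells, was at 475 ± 131 CPM in TH+ and 22.0 ± 15.9 CPM in TH- libraries (n = 5 each), so the labels held. UMIs of the outer segment genes were also counted in both groups. Prph2 had 1695, 835, 1929, 2033 and 1913 CPM in TH+ sections 1 to 5, against 940, 538, 1049, 998 and 761 CPM in TH-. Rp1 had 1000, 549, 917, 1081 and 1056 CPM in TH+ and 592, 336, 409, 459 and 345 CPM in TH-. Section 2 was lowest in both groups for both genes, and its TH+ value fell inside the TH- range. Rp1l1 had 347, 160, 471, 389 and 330 CPM in TH+ and 178, 92.6, 141, 160 and 141 CPM in TH-, with the same low section.

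Of the 9 genes tested, 3 were called higher in TH+ and 0 in TH-, where 0.747% of the 6021 genes tested were higher in TH+ and 0.0830% in TH-. Rpgr fell below the low-count filter, with 4, 4, 0, 1 and 0 UMIs in TH+ and 3, 1, 1, 4 and 1 UMIs in TH-. Its 0 counts in TH+ sections 3 and 5 allow up to 70.6 and 99.0 CPM. The genes called were Rp1, with a log2 fold change of 1.05 ± 0.19 (edgeR adjusted p = 3.25e-04), Rp1l1 at 1.16 ± 0.26 (edgeR adjusted p = 8.54e-03) and Prph2 at 0.93 ± 0.19 (edgeR adjusted p = 1.88e-03). Each was higher in TH+ in 5 of 5 sections, though the group ranges overlapped. DESeq2 called 3 of the 9 as well. At an unadjusted p under 0.05 edgeR counted 7 of the 9 as higher in TH+, beside 3.85% of all genes tested, and the median of the 9 was 0.81 against -0.05 for all genes tested. These p-values cover the spread between sections, not between animals.

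Rom1 at 0.81 ± 0.23 (edgeR adjusted p = 0.0767), Reep6 at 0.66 ± 0.19 (adjusted p = 0.0862) and Cdhr1 at 0.62 ± 0.20 (adjusted p = 0.142) missed the threshold while being higher in TH+ in 5 of 5 sections. Rpgrip1 at 1.25 ± 0.38 (edgeR adjusted p = 0.117) did too. With the section as a block, edgeR called 6 of the 9 genes, adding Rom1 and Cdhr1 (adjusted p = 5.36e-05 each) and Reep6 (adjusted p = 2.60e-06), and 148 genes in place of 50. Pcare at 0.30 ± 0.34 (adjusted p = 0.883, higher in 4 of 5 sections) and Prom1 at 0.10 ± 0.26 (adjusted p = 0.961, higher in 2 of 5) showed no detectable difference. Pcare was at -0.05 without section 5, and Prom1 at -0.05 without section 2, -0.02 without section 5 and -0.06 with no low-count filter. Whether their differences depart from that of Rp1 was not tested.

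Single sections weighed on these calls. Without section 2 edgeR called 6 of the genes, adding Rom1 (adjusted p = 9.20e-04), Cdhr1 (adjusted p = 7.01e-03) and Reep6 (adjusted p = 5.85e-03), and 73 genes in all. Without section 5 it called Rp1 alone (adjusted p = 0.0225), as Rp1l1 (adjusted p = 0.0617) and Prph2 (adjusted p = 0.0737) missed the threshold, and 31 genes in all. Rp1l1 was also lost without section 3 (edgeR adjusted p = 0.189), where 29 genes were called, and without section 4 (adjusted p = 0.0911). Rp1 was called in 12 of 12 alternatives, with adjusted p from 2.72e-10 to 0.0225. Over the alternatives the adjusted p of Prph2 ran from 4.98e-13 to 0.0737, that of Rp1l1 from 5.36e-05 to 0.189, that of Rom1 and Cdhr1 from 5.36e-05 to 0.520 and 0.529, and that of Reep6 from 2.60e-06 to 0.490.

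**Figure D4:**
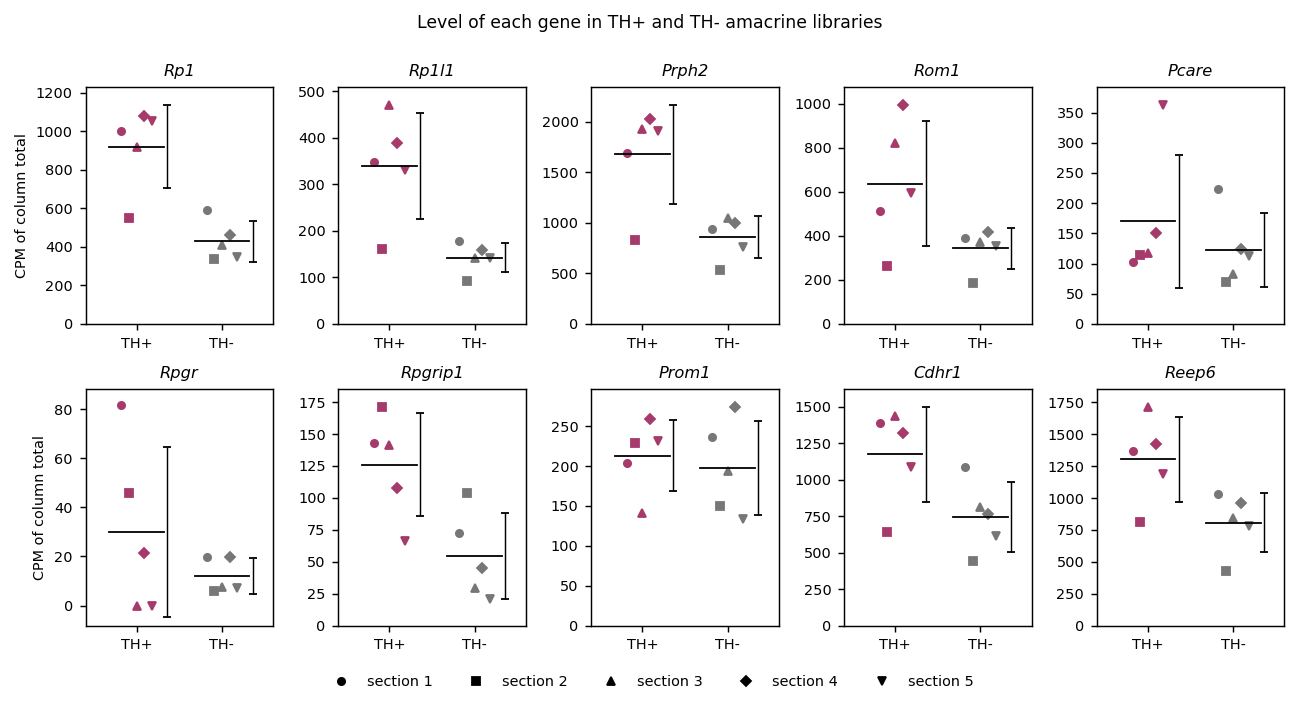
Level of each gene in CPM of the column total in TH+ and TH- amacrine libraries. Symbols are the 5 sections, black lines the means and bars ± 1 s.d. Prph2 is higher in TH+ than in TH- in every section, and section 2 is the lowest TH+ library for Rp1, Rp1l1, Prph2, Rom1, Cdhr1 and Reep6.

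Rod markers moved the same way. The 13 rod genes summed to 32157, 16147, 40182, 41042 and 38922 CPM in TH+ sections 1 to 5 and to 23642, 9136, 23037, 23994 and 18388 CPM in TH-, a ratio of means of 1.72. None of the 13 was at 0 in either group, and section 2 was lowest in each group. Of the 13, edgeR called 4 higher in TH+, among them Pde6g, Sag and Slc24a1, and 0 in TH-, with a median log2 fold change of 0.75, while DESeq2 called 0. At an unadjusted p under 0.05 edgeR counted 12 of the 13 as higher in TH+, against 3.85% of all genes tested. Müller glia markers differed the other way, with a sum over 8 genes of 3849 ± 603 CPM in TH+ and 5704 ± 1045 CPM in TH- (n = 5 each) and a median log2 fold change of -0.55. Of those 8, edgeR and DESeq2 called 0, and 4 were lower in TH+ at an unadjusted p under 0.05, as were 301 of the 6021 genes tested. The part of either list in the TH+ result for the 10 genes was not tested. Per 1000 rod UMIs, Rp1 had 28.3 ± 4.34 in TH+ and 23.5 ± 7.93 in TH- (n = 5 each, exact permutation p = 0.262), and Prph2 had 50.2 ± 1.93 and 45.4 ± 7.82 (exact permutation p = 0.206). Rp1l1 had 10.1 ± 1.24 and 7.62 ± 1.54 (n = 5 each, exact permutation p = 0.0317), the only 1 of the 10 genes with an unadjusted exact p under 0.05. These 3 genes were each higher in TH+ in 4 of 5 sections. Prom1 went the other way, at 7.26 ± 4.04 in TH+ and 10.7 ± 3.58 in TH- (n = 5 each, exact permutation p = 0.198), and was lower in TH+ in 5 of 5 sections. Pcare, Cdhr1 and Reep6 were also at lower means in TH+, with ratios of 0.820, 0.919 and 0.959 (n = 5 each, smallest exact permutation p = 0.476), while Rom1, Rpgr and Rpgrip1 were at higher means (n = 5 each, smallest exact permutation p = 0.429). None of the 10 passed a Benjamini-Hochberg threshold over these tests, which were added after the data were seen. The tests ignored pairing, although same-numbered TH+ and TH- libraries share a section. An exact test over 5 paired sections cannot give a p below 0.0625.

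Other genes of the discs, axoneme and connecting cilium give the setting. Of 28 such genes, 23 were higher in the ONL than in the BCL, beside 18.5% of all genes tested, and 5 were not called, with a median log2 fold change of 1.79 (0.09 over all genes tested). Against the GCL, 26 were higher in the ONL, beside 29.3% of all genes tested, and 2 were not called, with a median of 2.99 (0.00 over all genes). The largest rises were those of Mak, a kinase of the cilium, at 3.86 ± 0.17 (edgeR adjusted p = 1.85e-26) and Cnga1, a subunit of the rod channel, at 3.85 ± 0.16 (edgeR adjusted p = 2.82e-27). These lie close to the values of Rpgrip1 and Rp1l1, and no gene of the list was called higher in the GCL. The 2 not called were Rp2 and Rpgrip1l, the paralogue of Rpgrip1. In BCL against GCL, 15 were higher in the BCL, beside 16.1% of all genes tested, and 1, Wasf3, in the GCL, with a median of 1.17 (-0.02 over all genes). Between TH+ and TH-, edgeR and DESeq2 each called 0 of 20 tested, with a median of 0.65 (-0.05 over all genes) and 8 higher in TH+ at an unadjusted p under 0.05, beside 3.85% of all genes tested.

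Of 23 relatives of the 10 genes, such as the doublecortin kinases and the other Reep genes, 19 had a row in the layer table and 15 passed the low-count filter. In ONL against GCL, 3 rose and 7 fell, beside 29.3% and 32.2% of all genes tested, with a median of -0.56 (0.00 over all genes). Reep3 was among those that rose, at 0.83 ± 0.27 (edgeR adjusted p = 5.94e-03). Reep1 at -2.82 ± 0.23 (edgeR adjusted p = 5.95e-16) and Dclk2 at -2.78 ± 0.23 (edgeR adjusted p = 2.70e-15) fell most, whereas Reep6 rose by 3.50 ± 0.14 and Rp1 by 4.15 ± 0.14 in the same comparison. In ONL against BCL, 2 relatives rose and 5 fell, beside 18.5% and 18.2% of all genes tested, with a median of -0.80 (0.09 over all genes). In BCL against GCL, 2 rose and 6 fell, beside 16.1% and 20.4%, with a median of -0.36 (-0.02 over all genes). Of 10 tested between TH+ and TH-, edgeR and DESeq2 called 0, and 0 had an unadjusted p under 0.05.

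Profiles over the 12 layer libraries were compared as a description, since libraries of 1 section and layer share tissue and depth. Prph2 was closest to Rp1l1 (Pearson r = 0.998), Rp1 to Prph2 (r = 0.997), and Rom1 and Reep6 to each other (r = 0.997). Prom1 was closest to Rom1 (r = 0.996), Cdhr1 to Prom1 (r = 0.993), Pcare to Rom1 (r = 0.990) and Rpgrip1 to Rom1 (r = 0.987), all over n = 12 libraries. Rpgr had lower values, with its highest r, to Cdhr1, at 0.657. It had only 2 to 4 UMIs per BCL library, where counting alone gives a spread of 60.3%, and such noise lowers r. Whether its profile differs beyond counting was not tested. Outside the 10 genes, profiles most like their mean over the 12 libraries included those of Agpat3 (r = 0.997), Adipor1 (r = 0.996), Rtbdn (r = 0.996) and Zdhhc5 (r = 0.996).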

How the data were processed

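The members and lists were chosen with earlier results of these data known. The deposited values are UMI counts per gene: the authors extracted barcodes with UMI-tools 1.1.1, aligned reads with STAR 2.7.9a to GRCm39, handled alignments with SAMtools 1.9, assigned reads to exons with featureCounts of Subread, and removed duplicate UMIs. From the deposited counts, CPM used each column's total, and RPKM the deposited exon lengths.

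Fold changes came from edgeR 4.0.16 (TMM scaling, quasi-likelihood F-test) on all libraries of a table, after the filterByExpr filter (min.count 3, min.total.count 10). DESeq2 1.42.0 was an alternative, in R 4.3.3. Calls required a Benjamini-Hochberg adjusted p ≤ 0.05 over all genes tested, and ratios were compared with two-sided exact permutation tests in python 3.11.15. The edgeR step was first run on simulated counts.

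All 10 genes were named in each comparison, with 28 other disc, axoneme and cilium genes, 23 relatives and 11 cell type marker lists. Of the first 2 lists, up to 2 genes per direction with the largest called change in ONL against GCL were named, and further genes by correlation. Some genes that this rule picks are not reported here. Others were named after their values were seen. Same-numbered libraries come from 1 tissue section, and their residuals correlated at 0.0116 to 0.0493 over 12 layer pairs and 0.0287 to 0.257 over 5 amacrine pairs.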

Additional observations from a re-analysis of the deposited data

Results flagged for a closer look

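Of 110 groups of 4 or 5 libraries examined, 9 held a library far from the others of its group, where chance gives about 1 in 20, or 5.5. Among UMIs per 1000 rod UMIs, Pcare was lowest in ONL section 3 at 12.6, with the other sections at 14.2 to 14.4. Rpgr was lowest in ONL section 4 at 0.235 per 1000 (others 0.321 to 0.327) and highest in BCL section 1 at 1.33 per 1000 (others 0.505 to 0.5999), which rests on 6 and 4 UMIs. In TH+ section 2, Prph2 was lowest at 835 CPM (others 1695 to 2033), and the 10 genes together were lowest at 0.382% of UMIs (95% Wilson interval 0.343 to 0.425%, others 0.683 to 0.778%). The same library had the highest Prom1 per 1000 rod UMIs, at 14.2 (others 3.51 to 6.35). TH- section 2 had the lowest Rom1, at 185 CPM (others 352 to 419), and the highest Rpgrip1 per 1000 rod UMIs, at 11.4 (others 1.15 to 3.06). In TH+ section 5, the shallowest library, Pcare was highest at 363 CPM (others 102 to 151), which rests on 11 UMIs. Causes were not tested.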

How the results depend on the processing

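Across the alternatives, 439 of 468 fold changes of the 10 genes kept their direction and their side of the threshold, 19 lost their call, 6 gained one and 4 reversed. The reversed values were those of Prom1 in TH+ against TH-, at -0.0600 with no low-count filter, -0.0501 without section 2 and -0.0192 without section 5, and of Pcare at -0.0508 without section 5. Leaving out 1 section at a time, Prom1 ran from -0.0501 to 0.179 and Pcare from -0.0508 to 0.715. In BCL against GCL, a 2-fold threshold left 2704 of 4136 genes. With the replicate block, TH+ against TH- gave 148 genes called, 6 of them among the 10, and the block changed no other call of the 10 genes. Leaving out 1 section at a time gave 29 to 73 genes called in TH+ against TH-, with 1 to 6 of the 10 genes. In that comparison calls higher in TH+ were 90.0% of calls, 51.5% with no low-count filter and 64.9% with the block. CPM with TMM factors moved 7 of 10 ONL means by more than 1 s.d., by a mean factor of 1.13. Ratios gave 0 calls in every alternative. With 3 sections against 3 the smallest exact p is 0.1 and with 4 pairs 0.125, so those alternatives could not give one. The other ratio tests could give one only with many tests at their smallest possible p. The causes of these changes were not tested. The main limits are sections that are technical replicates in both experiments, and few TH+ cells and UMIs per library. Rod UMIs under the barcode of every region and 6 to 19 UMIs of Rpgr per ONL library are further limits.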

Other observations

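ONL section 4 had the lowest level of 7 of the 10 genes and the highest of Rp1, Pcare and Rpgrip1. It also had the lowest sum over the 9 cone markers, at 1135 CPM against a highest section of 2410 CPM and a mean of 1956 ± 581 CPM (n = 4). Among the ONL sections it had the highest bipolar and Müller glia sums, at 1283 and 1257 CPM. The horizontal cell, endothelial, microglia and erythrocyte sums were highest there too, and the pigment epithelium sum was lowest. Its rod, ganglion cell and amacrine sums were neither highest nor lowest.

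Marker lists of other cell types showed what else was counted under the barcode of each region. In ONL against GCL, edgeR called higher in the ONL 9 of 9 cone genes, 6 of 10 bipolar genes (1 in the GCL) and 3 of 3 pigment epithelium genes tested, with medians of 3.76, 1.03 and 2.65. Higher in the GCL were 9 of 9 ganglion cell genes, 6 of 7 amacrine genes (1 in the ONL), 6 of 8 Müller glia genes (2 in the ONL), 2 of 4 horizontal cell genes, 2 of 2 endothelial, 5 of 5 microglia and 1 of 1 erythrocyte genes tested. Of all 11324 genes tested, 29.3% rose and 32.2% fell in ONL against GCL. DESeq2 called 7 of 8 Müller glia genes, 6 of 7 amacrine genes and 0 of 1 erythrocyte gene there. For the other cell types just named it called as many genes as edgeR, counting both directions. Between TH+ and TH-, edgeR called 1 of 8 amacrine genes, which was Th. It called 0 of 2 cone genes, 0 of 7 bipolar genes, 0 of 8 Müller glia genes, 0 of 7 ganglion cell genes, 0 of 1 horizontal cell gene and 0 of 1 pigment epithelium gene, and DESeq2 called 0 of each. At an unadjusted p under 0.05, 1 bipolar gene, 4 Müller glia genes and 3 amacrine genes were lower in TH+, Th was higher, and 0 cone, ganglion cell, horizontal cell or pigment epithelium genes passed, where 232 of all 6021 genes tested were higher and 301 lower in TH+. No endothelial, microglia or erythrocyte gene was tested there.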
